A study of Homo sapiens with 12 samples.

Results

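The 10 genes described here act in the unfolded protein response, the programme by which a cell adjusts the folding capacity of its endoplasmic reticulum (ER). They were picked by symbol from textbook knowledge of the pathway, with earlier results of these data known, and are XBP1, ATF6, ERN1, HSPA5, HSP90B1, PDIA4, DNAJB9, HERPUD1, SDF2L1 and CALR. All 10 were found among the 60663 genes of the deposited table, and all 10 were among the 20714 genes that passed the filter on low counts and were tested. RNA depleted of ribosomal RNA was sequenced from RCC4, an established clear cell renal cell carcinoma line, in 4 groups of 3 libraries. The groups were VHL- cells under 5 µM JQ1, VHL- cells under DMSO, VHL+ cells under 5 µM JQ1 and VHL+ cells under DMSO. VHL- cells have lost VHL, the tumour suppressor that marks hypoxia-inducible factors for degradation, and VHL+ cells are RCC4 cells into which VHL was put back. All groups grew with geneticin, and the short hairpin lentiviruses against MYC in the growth protocol are named in no group label. JQ1, which the submitters call a MYC inhibitor, displaces BET bromodomain proteins from acetylated chromatin. The sources used here give neither the VHL construct nor the duration of treatment, and they do not say whether replicates were separate cultures, so the p-values measure a spread between libraries that may be technical.

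As background, proteins that enter the ER are folded by chaperones and by enzymes that form disulfide bonds, and those that fail are moved out and degraded. When unfolded protein builds up, the kinase and nuclease IRE1 (encoded by ERN1) cuts a short intron out of XBP1 mRNA, which then encodes an active transcription factor, while ATF6 is cleaved in the Golgi to release another. Both factors act on promoters of chaperone and degradation genes through ER stress elements, and the XBP1 gene is itself such a target. A gene count sums cut and uncut XBP1 mRNA, so the splicing step was not measured here.

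The promoters of 5 of these genes are shown because they belong to the transcripts that passed the test under JQ1 in both lines (XBP1, HERPUD1 and ERN1) and to the pair with the nearest levels across groups (HSPA5 and SDF2L1). Each run is the strand of the gene, 5′ to 3′, and holds the 230 bases just before the most upstream RefSeq start (GRCh38.p14), so that its last base is at -1. They lie at chr22:28800570-28800799 (minus strand), chr16:56931912-56932141 (plus), chr17:64130145-64130374 (minus), chr9:125241344-125241573 (minus) and chr22:21642072-21642301 (plus). Capitals mark the ends of a match, on either strand, to the ER stress element (CCAAT and CCACG with 9 bases between them) or to its second form (ATTGG and CCACG with 1 base between them).
XBP1: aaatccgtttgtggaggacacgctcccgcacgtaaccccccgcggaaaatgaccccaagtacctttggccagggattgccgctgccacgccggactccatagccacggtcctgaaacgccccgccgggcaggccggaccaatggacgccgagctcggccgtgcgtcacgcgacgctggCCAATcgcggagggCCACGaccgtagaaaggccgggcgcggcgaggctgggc
HERPUD1: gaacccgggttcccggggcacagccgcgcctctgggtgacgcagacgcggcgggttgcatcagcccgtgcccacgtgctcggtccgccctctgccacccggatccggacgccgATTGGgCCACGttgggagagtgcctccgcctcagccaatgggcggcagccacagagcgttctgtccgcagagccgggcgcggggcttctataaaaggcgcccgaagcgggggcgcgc
ERN1: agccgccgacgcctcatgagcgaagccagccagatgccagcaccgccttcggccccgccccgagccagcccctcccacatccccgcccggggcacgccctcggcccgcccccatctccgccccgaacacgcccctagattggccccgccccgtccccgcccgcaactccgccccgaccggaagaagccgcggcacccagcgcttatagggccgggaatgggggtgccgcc
HSPA5: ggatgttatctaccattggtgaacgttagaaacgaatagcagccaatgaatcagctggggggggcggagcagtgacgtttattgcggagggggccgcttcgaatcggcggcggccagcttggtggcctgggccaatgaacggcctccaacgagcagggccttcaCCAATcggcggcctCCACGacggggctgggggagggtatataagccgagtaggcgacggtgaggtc
SDF2L1: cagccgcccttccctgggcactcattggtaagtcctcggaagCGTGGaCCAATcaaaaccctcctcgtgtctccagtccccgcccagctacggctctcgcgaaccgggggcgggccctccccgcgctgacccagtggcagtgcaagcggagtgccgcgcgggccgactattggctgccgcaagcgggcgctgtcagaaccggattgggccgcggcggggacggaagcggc

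The first form was found in the windows of 4 of the 10 genes, XBP1, HSPA5, HSP90B1 and CALR, and in 21 of 27326 RefSeq windows (0.0768%) that reach from 250 bases before to 50 bases after a start. In XBP1 it lay from -52 to -34 and in HSPA5 from -66 to -48 relative to the start. HSP90B1 held a match from -194 to -176 and another on the opposite strand from -89 to -71. CALR held 1 on the opposite strand from -225 to -207. The second form was found in 2 of the 10, HERPUD1 from -117 to -107 and SDF2L1 on the opposite strand from -188 to -178, and in 16 of 27326 windows (0.0586%). The core TGACGTGG, bound by XBP1 and ATF6, was in none of the 10 windows and in 220 of 27326 (0.805%). Of 124 windows of the other ER genes listed further below, 2 (1.61%) held the first form, 1 (0.806%) the second and 11 (8.87%) the core. The windows of ATF6, ERN1, PDIA4 and DNAJB9 held none of the 3 motifs, which says only that those letters are not in these windows. The elements were first described in promoters of such chaperone genes, so their share among the 10 is a description of known targets.

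Levels are given as CPM, counts brought to a common library size after TMM scaling. Differences are log2 fold changes with p-values from the quasi-likelihood test of edgeR, adjusted by Benjamini and Hochberg's method over all tested genes, and a gene passed below 0.05. Total counts per library ran between 15452949 and 32502310. VHL stood at 30.5 to 35.2 CPM in VHL- JQ1, 24.9 to 28.2 CPM in VHL- DMSO, 196 to 221 CPM in VHL+ JQ1 and 64.6 to 78.9 CPM in VHL+ DMSO libraries. It was thus higher in VHL+ cells, as the labels say, though its RNA was not absent in VHL- cells. VHL also rose 3.02-fold under JQ1 in VHL+ cells (edgeR adjusted p = 1.76e-07). The lines therefore differed 2.66-fold in VHL RNA under DMSO and 6.49-fold under JQ1. Whether this has a part in the differences between the lines under JQ1, or between the JQ1 effects, was not tested. HEXIM1, a transcript that rises under BET inhibitors, lay between 177 and 226 CPM in the JQ1 libraries and between 63.9 and 99.5 CPM in the DMSO libraries. Of the kidney lineage factors, PAX8 was present while LHX1 and EMX2 were low. Endothelial markers summed to between 0.218 and 2.26 CPM and leukocyte markers to between 0.0364 and 0.54 CPM. Libraries of 1 group differed in other transcripts too. The nuclear long RNA NEAT1 stood at 4771, 16880 and 11410 CPM in replicates 1, 2 and 3 of VHL- JQ1, and the 10 genes summed to 3835, 2480 and 2964 CPM there. NEAT1 ran from 749 to 2818 CPM in VHL- DMSO, where mitochondrial transcripts took 25.3%, 13.1% and 9.9% of counts, beside 15.6% to 21.8% in the other groups. VHL- JQ1 replicate 2 also had the lowest total count of the series. Whether this spread has a part in the results below was not tested.

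Per kilobase of exon, CALR was the most abundant of the 10 in every group, at 444.6, 576, 654 and 499.9 CPM per kb on average in VHL- JQ1, VHL- DMSO, VHL+ JQ1 and VHL+ DMSO libraries. HSP90B1, HSPA5 and PDIA4 formed the next step, with group means between 107 and 184 CPM per kb. These 3 overlapped with their neighbours in order, except that HSP90B1 lay above HSPA5 with no overlap in VHL+ JQ1 libraries. XBP1, HERPUD1, ATF6 and SDF2L1 came next, with means between 6.49 and 24.4 CPM per kb. DNAJB9 (3.07 to 4.84 CPM per kb) and ERN1 (1.05 to 2.16 CPM per kb) closed the order in all 4 groups, with no overlap between them. The place of XBP1 differed by treatment. It was the fifth of the 10 under DMSO in both lines, overlapping with HERPUD1 below it in VHL- cells, but the eighth in VHL- and the seventh in VHL+ cells under JQ1, where its libraries overlapped with those of SDF2L1 and HERPUD1, the genes just above it.

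**Figure D1:**
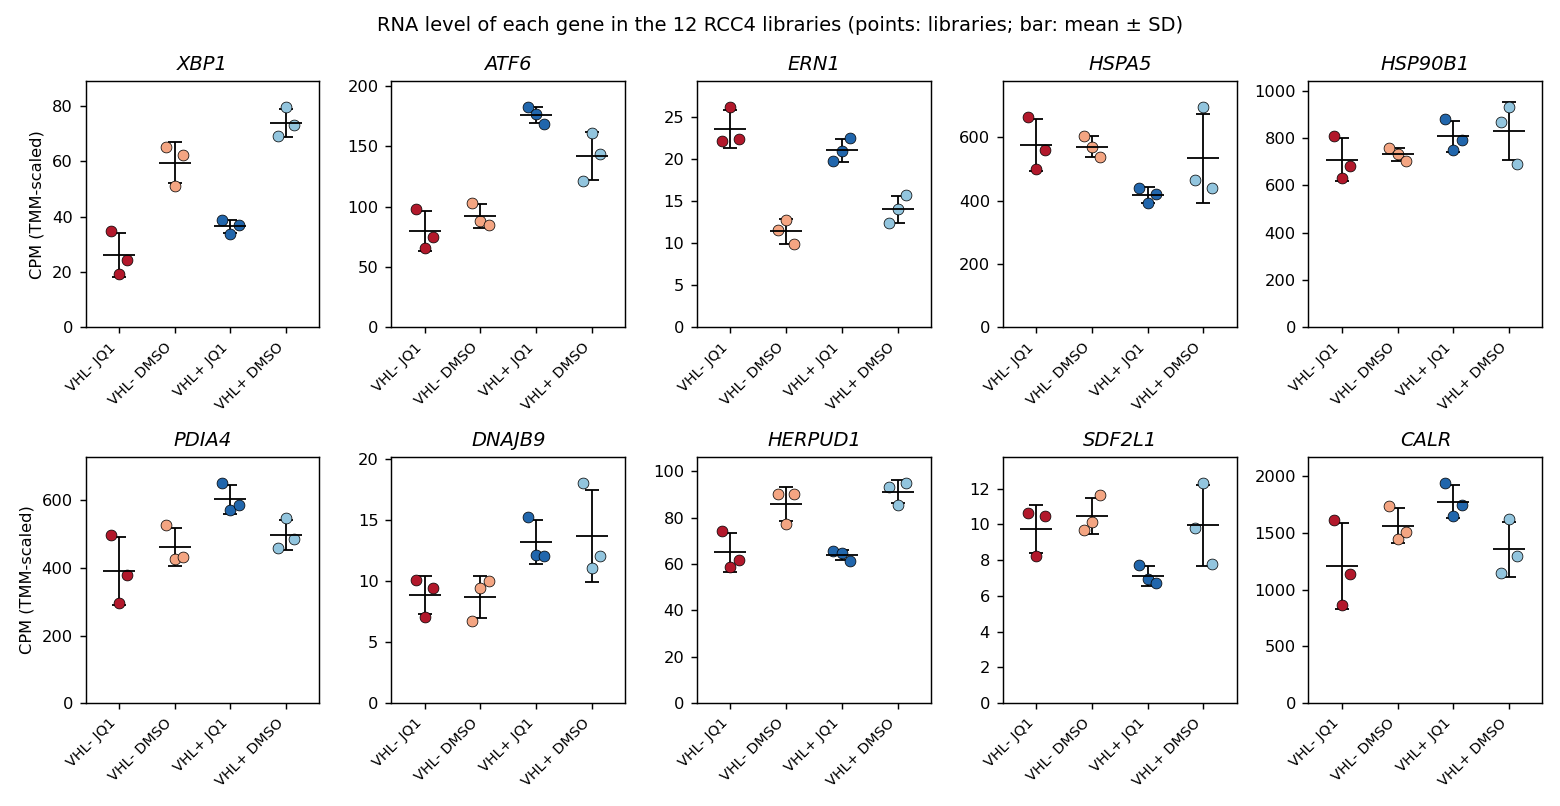
Level of each of the 10 genes in every library, in CPM on a linear axis that starts at 0, with each group's mean as a bar; groups are VHL- JQ1, VHL- DMSO, VHL+ JQ1 and VHL+ DMSO from left to right. XBP1 and HERPUD1 sat lower and ERN1 higher in the JQ1 libraries of each line than in its DMSO libraries, with no overlap.

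Under JQ1, XBP1 and HERPUD1 fell and ERN1 rose in both lines, while none of the chaperones, nor PDIA4, passed the test in either line. In VHL- cells 3 of the 10 genes passed, 1 up and 2 down, where 32.2% of all tested genes passed (14.7% up and 17.5% down). In VHL+ cells the count was again 3, with 1 up and 2 down, where 31.7% of all tested genes passed (15.3% up and 16.4% down). JQ1 and DMSO libraries did not overlap for 3 of the 10 genes in VHL- cells, where 43.1% of all tested genes had no overlap, and for 7 of the 10 in VHL+ cells, where 48.2% had none. The share of the 10 that passed is therefore close to the background in each line. The median change of the 10 was -0.15 in VHL- and -0.05 in VHL+ cells on the log2 scale, beside 0.03 and -0.03 over all tested genes. In bulk RNA, fewer cells with a transcript and less of it per cell cannot be told apart.

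XBP1 (ENSG00000100219, chr22:28794555-28800597, minus strand, GRCh38) is the transcription factor that IRE1 activates. VHL- libraries had 34.7, 19.1 and 24.5 CPM under JQ1 and 65.2, 50.9 and 62.3 CPM under DMSO. VHL+ libraries had 38.6, 33.8 and 36.8 CPM under JQ1 and 69.2, 79.3 and 72.8 CPM under DMSO. Every JQ1 library lay below every DMSO library of either line. The change was -1.18 in VHL- cells (SE 0.175, 95% interval -1.55 to -0.81, edgeR adjusted p = 7.32e-05), a 2.27-fold lower level. In VHL+ cells it was -1.02 (SE 0.174, 95% interval -1.38 to -0.65, edgeR adjusted p = 0.000291), a 2.03-fold lower level. Both calls held under all 24 alternative settings, with values of -1.45 to -0.99 in VHL- and -1.13 to -0.94 in VHL+ cells. The authors' deposited tables list -1.21 and -1.01 for XBP1 in VHL- and VHL+ cells. The difference between both JQ1 effects was -0.16 with a 95% interval of -0.68 to 0.35, so an effect larger by about 0.68 in VHL- cells lies within the error.

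ERN1 (ENSG00000178607, chr17:64039142-64130819, minus strand), whose product IRE1 senses unfolded protein and cuts XBP1 mRNA, went the other way. Its level in VHL- cells was 22.1, 26.1 and 22.3 CPM under JQ1 and 11.5, 12.8 and 9.88 CPM under DMSO. Its level in VHL+ cells was 19.7, 20.9 and 22.4 CPM under JQ1 and 12.4, 14.0 and 15.7 CPM under DMSO. The 6 JQ1 libraries all lay above the 6 DMSO libraries. ERN1 rose by 1.04 in VHL- cells (SE 0.143, edgeR adjusted p = 3.54e-05), or 2.06-fold, and by 0.58 in VHL+ cells (SE 0.142, edgeR adjusted p = 0.00466), or 1.5-fold. Both rises passed under all 24 alternatives. The difference between both effects, 0.46 (95% interval 0.04 to 0.88), did not pass (edgeR unadjusted p = 0.0342, adjusted p = 0.191).

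HERPUD1 (ENSG00000051108, chr16:56932048-56944863, plus strand) encodes an ER membrane protein that helps to assemble the degradation machinery. In VHL- cells it stood at 74.4, 58.8 and 61.6 CPM under JQ1 and at 90.05, 77.2 and 89.9 CPM under DMSO. In VHL+ cells it stood at 65.5, 64.6 and 61.4 CPM under JQ1 and at 93.3, 85.4 and 94.8 CPM under DMSO. The treatments did not overlap in either line, with the gap narrow in VHL- cells. HERPUD1 changed by -0.40 in VHL- (SE 0.125, edgeR adjusted p = 0.0208) and by -0.51 in VHL+ cells (SE 0.125, edgeR adjusted p = 0.00457). In VHL- cells the call was lost without VHL- JQ1 replicate 2 (-0.32, edgeR adjusted p = 0.09), VHL- JQ1 replicate 3 (-0.36, edgeR adjusted p = 0.111) or VHL- DMSO replicate 1 (-0.36, edgeR adjusted p = 0.0753). In VHL+ cells it held without any single library. The difference between both effects was 0.11 (95% interval -0.26 to 0.48).

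**Figure D2:**
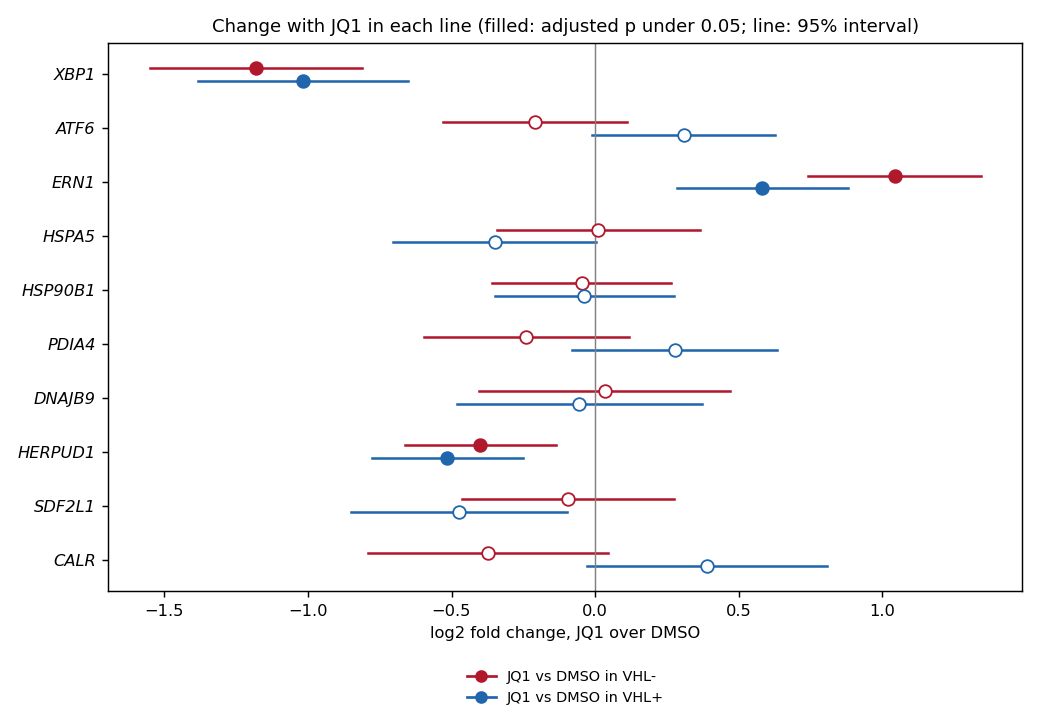
Change under JQ1 of each of the 10 genes in VHL- and VHL+ cells, as log2 fold change of JQ1 over DMSO with 95% intervals; filled points passed at an adjusted p under 0.05. XBP1 (-1.18 and -1.02) and HERPUD1 (-0.40 and -0.51) lie left of 0 and ERN1 (1.04 and 0.58) right of 0 in both lines, while the intervals of most other genes cross 0.

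HSPA5 (ENSG00000044574, chr9:125234853-125241330, minus strand) encodes BiP, the main Hsp70 chaperone of the ER, which also holds IRE1 and ATF6 inactive. Its level in VHL- cells was 664, 501.0 and 561 CPM under JQ1 and 605, 571.0 and 536.5 CPM under DMSO. VHL+ cells had 441, 392 and 422 CPM under JQ1 and 465, 694 and 441 CPM under DMSO. The VHL- groups overlapped throughout, and in VHL+ cells the JQ1 libraries overlapped with DMSO replicate 3. The change was 0.01 in VHL- (95% interval -0.34 to 0.36, edgeR adjusted p = 0.968) and -0.35 in VHL+ cells (95% interval -0.70 to 0.00, edgeR adjusted p = 0.125). With 1 library left out the VHL+ change ranged from -0.46 to -0.10 and passed in 0 of the 12 fits. It passed in 2 of 24 alternatives, of which 1 was scaling by total counts (-0.45, edgeR adjusted p = 0.0295). It also passed when the fit held protein-coding genes alone, an alternative chosen after seeing the data (-0.39, edgeR adjusted p = 0.0432).

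HSP90B1 (ENSG00000166598, chr12:103930107-103953645, plus strand) encodes GRP94, the Hsp90 chaperone of the ER. It ran at 808, 631 and 683 CPM under JQ1 and 758, 732.0 and 701 CPM under DMSO in VHL- cells. VHL+ cells had 880.2, 751 and 791 CPM under JQ1 and 865.5, 929 and 692 CPM under DMSO. The groups overlapped in both lines, and the change was -0.05 in VHL- (95% interval -0.36 to 0.26) and -0.04 in VHL+ cells (95% interval -0.35 to 0.27). Of its exon bases 7.6% overlap C12orf73, MIR3652 or TTC41P, and since no source used here gives the strand setting of the counting, that part of its counts is uncertain. The pseudogene copy HSP90B2P had 411 counts over all 12 libraries, beside 110 for XBP1P1 and 15 for HSPA5P1.

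CALR (ENSG00000179218, chr19:12938578-12944489, plus strand) encodes calreticulin, a calcium-binding chaperone of glycoproteins. It stood at 1616, 867 and 1137 CPM under JQ1 and at 1737, 1451 and 1505 CPM under DMSO in VHL- cells. In VHL+ cells it stood at 1939, 1647 and 1743 CPM under JQ1 and at 1148, 1625 and 1297 CPM under DMSO. The VHL- groups overlapped through JQ1 replicate 1, while in VHL+ cells each JQ1 library lay above each DMSO library. The change was -0.37 in VHL- (SE 0.198, edgeR adjusted p = 0.161) and 0.39 in VHL+ cells (SE 0.198, edgeR adjusted p = 0.15). Overlap with the antisense gene AC092069.1 covers 9.95% of its exon bases and makes that part of its counts uncertain.

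PDIA4 (ENSG00000155660, chr7:149003062-149028641, minus strand) encodes ERp72, a disulfide isomerase. VHL- cells had 498, 297 and 378.5 CPM under JQ1 and 527.5, 425 and 432 CPM under DMSO. VHL+ cells had 651, 570.4 and 586 CPM under JQ1 and 458, 547.5 and 487 CPM under DMSO. As with CALR, the VHL- groups overlapped and the VHL+ groups did not. The change was -0.24 in VHL- (edgeR adjusted p = 0.297) and 0.28 in VHL+ cells (edgeR adjusted p = 0.232). Averaged by group, PDIA4 and CALR had the second nearest pair of patterns among the 10 genes, with a root mean square difference of 0.117 on the log2 scale over the 4 group means.

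ATF6 (ENSG00000118217, chr1:161766294-161964070, plus strand), the sensor that becomes a transcription factor, stood at 97.8, 66.0 and 75.3 CPM under JQ1 and 103.2, 88.5 and 84.8 CPM under DMSO in VHL- cells. VHL+ cells had 182, 177 and 169 CPM under JQ1 and 121, 161 and 144 CPM under DMSO. The VHL- groups overlapped, and the VHL+ groups did not. Neither the change in VHL- (-0.21, edgeR adjusted p = 0.312) nor that in VHL+ cells (0.31, edgeR adjusted p = 0.134) passed.

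The cochaperones of BiP had low levels. DNAJB9 (ENSG00000128590, chr7:108569568-108574850, plus strand), a J-domain protein also called ERdj4, stood at 10.1, 7.09 and 9.44 CPM under JQ1 and 6.75, 9.41 and 9.99 CPM under DMSO in VHL- cells. In VHL+ cells it stood at 15.3, 12.2 and 12.1 CPM under JQ1 and 18.1, 11.1 and 12.1 CPM under DMSO. The treatments overlapped in both lines (0.03 and -0.06, edgeR adjusted p = 0.92 and 0.87), and 6.45% of its exon bases overlap PNPLA8 or THAP5. SDF2L1 (ENSG00000128228, chr22:21642261-21644298, plus strand), which acts with DNAJB11 to keep unfolded proteins soluble, stood at 10.6, 8.22 and 10.4 CPM under JQ1 and 9.68, 10.1 and 11.6 CPM under DMSO in VHL- cells. VHL+ cells had 7.75, 6.93 and 6.71 CPM under JQ1 and 9.79, 12.3 and 7.77 CPM under DMSO. Its change was -0.09 in VHL- (edgeR adjusted p = 0.712) and -0.48 in VHL+ cells (95% interval -0.85 to -0.10, edgeR adjusted p = 0.051). In VHL+ cells the JQ1 libraries lay just below the DMSO libraries, and this change passed under 7 of 24 alternatives. Across the 4 group means SDF2L1 and HSPA5 were the nearest pair of the 10 genes, at a root mean square difference of 0.0618.

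The intervals show how much change the other 7 genes could have had. Over these genes the lowest 95% bound was -0.85 (SDF2L1 in VHL+ cells) and the highest 0.81 (CALR in VHL+ cells). The estimated changes of XBP1 (-1.18 in VHL- and -1.02 in VHL+ cells) lay beyond these bounds. Its own 95% intervals, -1.55 to -0.81 and -1.38 to -0.65, reach within them. Whether XBP1 fell more than each of these genes was not tested.

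Without drug, ATF6 and DNAJB9 were lower in VHL- than in VHL+ cells and the other 8 genes did not pass. These were 2 of 10 genes, both lower, where 30.7% of all tested genes passed (14.8% higher and 15.9% lower), and the median difference of the 10 was -0.15, beside 0.00 over all tested genes. ATF6 averaged 92.2 ± 9.69 CPM in VHL- and 142 ± 20.0 CPM in VHL+ cells (SD, n = 3 each), with no overlap, a difference of -0.62 (SE 0.152, edgeR adjusted p = 0.0044). This call held under all 24 alternatives. DNAJB9 averaged 8.71 ± 1.73 CPM in VHL- and 13.7 ± 3.76 CPM in VHL+ cells (SD, n = 3 each), a difference of -0.65 (SE 0.204, edgeR adjusted p = 0.0216). The DNAJB9 call was lost without VHL- DMSO replicate 1 (-0.50, edgeR adjusted p = 0.104) or VHL+ DMSO replicate 1 (-0.41, edgeR adjusted p = 0.148). XBP1 averaged 59.5 ± 7.55 CPM in VHL- and 73.8 ± 5.14 CPM in VHL+ cells (SD, n = 3 each), and its libraries did not overlap, but the difference of -0.31 did not pass (edgeR adjusted p = 0.186). In all, 3 of the 10 genes had no overlap between the lines under DMSO, where 42.7% of all tested genes had none.

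Under JQ1, in VHL- cells ATF6, PDIA4, CALR, DNAJB9 and XBP1 were lower and HSPA5 was higher than in VHL+ cells, 6 of 10 genes where 41% of all tested genes passed (19.8% higher and 21.2% lower). The median difference of the 10 was -0.33, beside 0.03 over all tested genes. ATF6 averaged 79.7 ± 16.4 CPM in VHL- and 176 ± 6.72 CPM in VHL+ cells (SD, n = 3 each), 2.21-fold lower (-1.14, SE 0.153, edgeR adjusted p = 1.79e-05). PDIA4 averaged 391.0 ± 101 CPM in VHL- and 603 ± 42.6 CPM in VHL+ cells (SD, n = 3 each), a difference of -0.62 (SE 0.169, edgeR adjusted p = 0.00743). HSPA5 averaged 575 ± 82.5 CPM in VHL- and 418 ± 25.1 CPM in VHL+ cells (SD, n = 3 each), a difference of 0.46 (SE 0.168, edgeR adjusted p = 0.0373). Libraries of both lines did not overlap for these 3 genes, nor for DNAJB9, CALR and SDF2L1, while those of XBP1 did. These 6 of 10 genes compare with 52.9% of all tested genes.

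The ATF6 and PDIA4 differences under JQ1 passed without any single library. The other 4 calls were close to the threshold: CALR -0.56 (edgeR adjusted p = 0.033), DNAJB9 -0.57 (edgeR adjusted p = 0.0375), XBP1 -0.47 (edgeR adjusted p = 0.0382) and HSPA5 as above. Without VHL- JQ1 replicate 3, or without any 1 of the VHL+ JQ1 libraries, only ATF6 and PDIA4 passed, 2 of 10. Over the whole table between 6427 and 7060 genes passed in these fits, beside 8495 with all libraries. Without VHL- JQ1 replicate 2, CALR (-0.36, edgeR adjusted p = 0.146), XBP1 (-0.29, edgeR adjusted p = 0.182) and DNAJB9 (-0.43, edgeR adjusted p = 0.146) did not pass. Without VHL- JQ1 replicate 1, HSPA5 did not (0.32, edgeR adjusted p = 0.132). Single DMSO libraries mattered as well, since XBP1 was just over the threshold without VHL+ DMSO replicate 3 (edgeR adjusted p = 0.0503) and HSPA5 without VHL- DMSO replicate 1 (edgeR adjusted p = 0.0507). ERN1 (23.5 ± 2.24 CPM in VHL- and 21.0 ± 1.36 CPM in VHL+ cells, SD, n = 3 each), HERPUD1 (64.9 ± 8.31 and 63.8 ± 2.13 CPM) and HSP90B1 (707 ± 90.9 and 807.5 ± 66.1 CPM) did not pass.

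**Figure D3:**
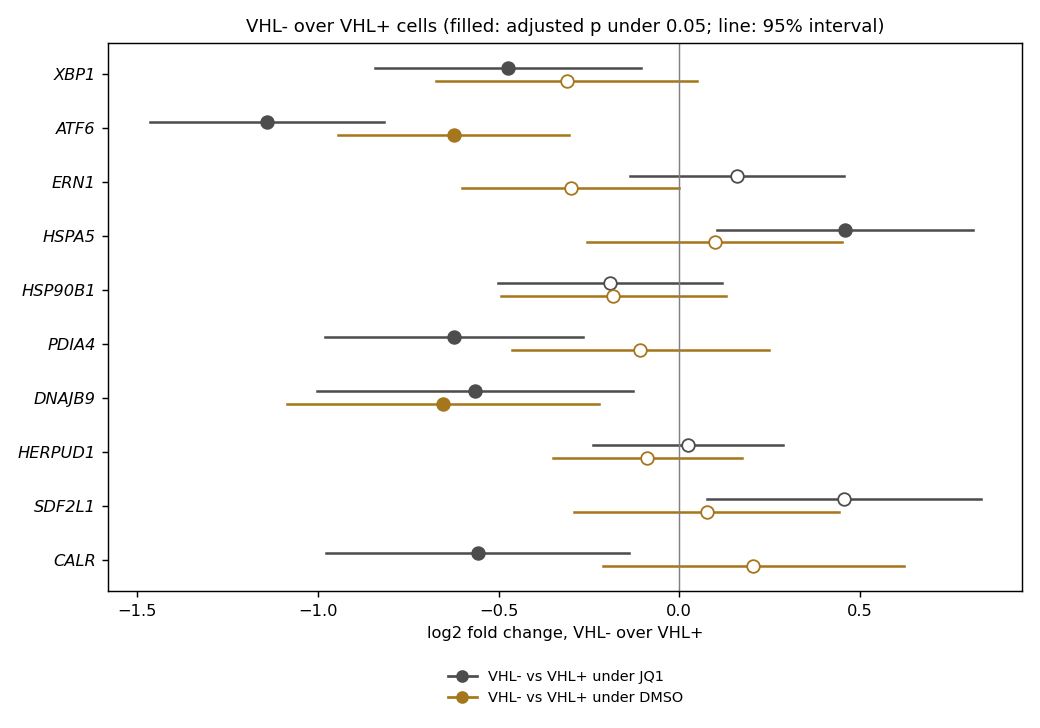
Difference between the lines for each of the 10 genes, as log2 fold change of VHL- over VHL+ cells with 95% intervals, under JQ1 (grey) and under DMSO (brown); filled points passed at an adjusted p under 0.05. ATF6 lies left of 0 under JQ1 (-1.14) and under DMSO (-0.62), and PDIA4 and CALR lie further left under JQ1 than under DMSO.

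Whether the JQ1 effect differed between the lines was tested directly. None of the 10 genes passed, where 1.4% of all tested genes passed. At an unadjusted p under 0.05 the edgeR test gave 4 of 10 genes, where 22.4% of all tested genes were below it. These 4 were CALR (-0.76, 95% interval -1.35 to -0.17, adjusted p = 0.137), ATF6 (-0.52, adjusted p = 0.175), PDIA4 (-0.52, adjusted p = 0.214) and ERN1 (0.46, adjusted p = 0.191), all from edgeR. After adjustment DESeq2 gave 0 of 10, where it passed 1188 genes of the whole table, beside 291 with edgeR. For CALR, ATF6 and PDIA4 the estimated change was negative in VHL- and positive in VHL+ cells, though none of these 6 changes passed by itself. This comparison depended on VHL- JQ1 replicate 1. NEAT1 was lowest of its group in that library (4771 CPM) but within the 4721 to 6393 CPM of the VHL+ JQ1 libraries. The 10 genes summed to 3835 CPM in it, 2480 and 2964 CPM in replicates 2 and 3, and 3675 to 4240 CPM in VHL+ JQ1 libraries. Which of these libraries is unusual was not tested. Without VHL- JQ1 replicate 1, leaving replicates 2 and 3, CALR (-1.05, edgeR adjusted p = 0.00879), ATF6 (-0.72, edgeR adjusted p = 0.0193) and PDIA4 (-0.75, edgeR adjusted p = 0.0209) passed. Without it these 3 genes also fell under JQ1 within VHL- cells. CALR fell by 0.65 (edgeR adjusted p = 0.00804), PDIA4 by 0.46 (edgeR adjusted p = 0.0255) and ATF6 by 0.39 (edgeR adjusted p = 0.0394). Thus 6 of the 10 passed there, where 8107 genes of the whole table passed, beside 6678 with all libraries. The number of tested genes over the whole table whose JQ1 effect differed between the lines was 3624 without VHL- JQ1 replicate 1 and 291 with it. It was 143 without VHL- JQ1 replicate 2, 69 without replicate 3, and 66, 82 and 97 without VHL+ JQ1 replicates 1, 2 and 3. Of the 12 fits without 1 library, CALR, ATF6 and PDIA4 passed for this difference only in the 1 without VHL- JQ1 replicate 1.

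Another 142 genes of ER folding, degradation, protein entry, transport to the Golgi and stress signalling were listed, of which 141 were tested. Under JQ1, 6 of them rose and 31 fell in VHL- cells, 26.2% in all, with a median change of -0.18 beside 0.03 over all tested genes. In VHL+ cells 28 rose and 13 fell, 29.1% in all, with a median of 0.10 beside -0.03 over all tested genes. Both shares are below the 32.2% and 31.7% of all tested genes. The size of these counts moved with single libraries, and in VHL+ cells their direction moved with the scaling. In VHL- cells the falls numbered 64 without VHL- JQ1 replicate 1, 20 without VHL- JQ1 replicate 2 and 19 without VHL- JQ1 replicate 3. Falls among all tested genes moved the same way, to 4430, 2850 and 2594 in these fits, beside 3632 with all libraries. In VHL+ cells, scaling by total counts turned the balance to 15 rises and 25 falls, and it moved the median of all genes by -0.11. Leaving out VHL+ JQ1 replicate 1 or 3 there gave 15 or 17 rises, beside 9 or 8 falls. Among all tested genes these fits gave 2321 or 2452 rises and 2401 or 2466 falls, beside 3178 and 3393 with all libraries. The list sums in VHL- JQ1 libraries followed the order of the 10 genes, with other folding genes at 3994, 2781 and 3221 CPM in replicates 1, 2 and 3.

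Of the 32 tested other folding genes, 7 fell and none rose in VHL- cells (21.9%, beside 32.2% of all tested genes). In VHL+ cells 7 rose and 1 fell (25%, beside 31.7% of all tested genes). FKBP14, a prolyl isomerase of the ER, fell by 0.96 in VHL- cells (20.2 ± 4.12 CPM under JQ1 and 39.5 ± 1.70 CPM under DMSO, SD, n = 3 each, edgeR adjusted p = 6.87e-05). PRDX4, an ER peroxiredoxin, fell by 0.78 there (75.9 ± 27.2 CPM under JQ1 and 130.2 ± 13.4 CPM under DMSO, edgeR adjusted p = 0.00519) and CNPY2 fell by 0.73, a call lost without VHL- JQ1 replicate 3 (-0.60, edgeR adjusted p = 0.0575). In VHL+ cells QSOX1, a secreted and Golgi sulfhydryl oxidase, rose by 1.23 (268 ± 12.0 CPM under JQ1 and 115 ± 15.2 CPM under DMSO, edgeR adjusted p = 7.61e-06). DNAJC1 and FKBP7 rose by 0.67 and 0.56. The FKBP7 call was lost in 5 of the 12 fits without 1 library, among them those without any 1 of the VHL+ JQ1 libraries or without VHL+ DMSO replicate 2 or 3 (0.45 to 0.61 in these, edgeR adjusted p up to 0.111). DNAJB11, the J-domain partner of BiP and SDF2L1, fell in both lines, by 0.54 in VHL- (edgeR adjusted p = 0.0134) and by 0.51 in VHL+ cells (23.8 ± 1.20 CPM under JQ1 and 33.9 ± 4.51 CPM under DMSO, edgeR adjusted p = 0.0172). The VHL- call was lost without VHL- JQ1 replicate 2 (-0.42, edgeR adjusted p = 0.0723), and the VHL+ call without any 1 of the VHL+ JQ1 libraries or VHL+ DMSO replicate 2 (-0.53 to -0.40, edgeR adjusted p between 0.0508 and 0.0892).

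Of the 26 degradation genes 3 rose and 1 fell in VHL- cells (15.4%, beside 32.2% of all tested genes). In VHL+ cells 12 rose and none fell (46.2%, beside 31.7% of all tested genes, 15.3% up). HERPUD1 would belong to this list and went the other way. VCP, the ATPase that pulls proteins out of the ER membrane, rose by 0.54 in VHL- (450 ± 71.2 CPM under JQ1 and 309 ± 38.5 CPM under DMSO) and by 0.84 in VHL+ cells (481 ± 49.5 CPM under JQ1 and 268 ± 3.70 CPM under DMSO), with edgeR adjusted p of 0.00887 and 0.000325. The VHL- call was lost without VHL- DMSO replicate 1 (0.44, edgeR adjusted p = 0.0579). NPLOC4, a cofactor of VCP, rose by 0.39 in VHL- (edgeR adjusted p = 0.0195) and by 0.42 in VHL+ cells (edgeR adjusted p = 0.0131). Its VHL- call was lost without VHL- JQ1 replicate 3 or VHL- DMSO replicate 1 or 2 (edgeR adjusted p between 0.0586 and 0.0912), and its VHL+ call without VHL+ JQ1 replicate 1 or 3 or VHL+ DMSO replicate 1 (edgeR adjusted p between 0.0504 and 0.0617), with values of 0.34 to 0.42 in these fits. The lectin OS9 rose by 0.64 in VHL+ cells. AUP1, which anchors a ubiquitin-conjugating enzyme, fell by 0.79 in VHL- cells. The 12 rises in VHL+ cells numbered 5 with scaling by total counts, 6 without VHL+ JQ1 replicate 1 or 3, and 7 without VHL+ DMSO replicate 1. Rises among all tested genes numbered 2078, 2321, 2452 and 2816 in these fits, beside 3178 in the main fit.

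Of the 31 genes of protein entry and glycosylation 4 fell and none rose in VHL- cells (12.9%, beside 32.2% of all tested genes). In VHL+ cells 2 rose and 3 fell (16.1%, beside 31.7% of all tested genes). SRP72, a subunit of the signal recognition particle, fell in both lines, by 0.84 in VHL- (58.9 ± 5.40 CPM under JQ1 and 105 ± 6.04 CPM under DMSO, edgeR adjusted p = 6.44e-05) and by 0.75 in VHL+ cells (57.4 ± 4.44 CPM under JQ1 and 96.3 ± 7.36 CPM under DMSO, edgeR adjusted p = 0.00021). STT3A, a catalytic subunit of the oligosaccharyltransferase, fell by 0.84 and the receptor subunit SRPRA by 0.78 in VHL- cells. TUSC3 and MAGT1, alternative subunits of an oligosaccharyltransferase, rose by 0.70 and 0.51 in VHL+ cells, and the signal peptidase subunit SPCS3 fell by 0.52. The MAGT1 call was lost without VHL+ JQ1 replicate 1 (0.43) or VHL+ DMSO replicate 3 (0.52), and the SPCS3 call without VHL+ JQ1 replicate 2 (-0.43) or 3 (-0.50) or VHL+ DMSO replicate 2 (-0.40), with edgeR adjusted p between 0.0524 and 0.0993. The count of falls in VHL- cells was 19 without VHL- JQ1 replicate 1, 9 without VHL- DMSO replicate 2 and 7 without VHL- DMSO replicate 3. Falls among all tested genes numbered 4430, 3597 and 3354 in these fits, beside 3632 with all libraries.

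Of the 26 ER to Golgi transport genes 11 fell and none rose in VHL- cells (42.3%, beside 32.2% of all tested genes, 17.5% down). In VHL+ cells 3 rose and 5 fell (30.8%, beside 31.7% of all tested genes). KDELR3, a receptor that returns escaped ER chaperones, fell in both lines, by 1.14 in VHL- (16.4 ± 2.36 CPM under JQ1 and 36.3 ± 6.80 CPM under DMSO, edgeR adjusted p = 5.52e-05) and by 0.67 in VHL+ cells (22.5 ± 1.68 CPM under JQ1 and 35.7 ± 5.50 CPM under DMSO, edgeR adjusted p = 0.00468). MCFD2 and the COPII coat subunit SEC23A fell by 0.84 and 0.79 in VHL- cells. The coat subunit SEC24D fell by 0.45 in VHL- (edgeR adjusted p = 0.0172) and by 0.91 in VHL+ cells (edgeR adjusted p = 9.02e-05), and its VHL- call was lost without VHL- JQ1 replicate 3 (-0.40, edgeR adjusted p = 0.0947) or VHL- DMSO replicate 1 (-0.36, edgeR adjusted p = 0.0811). The receptor KDELR1 fell by 0.68 in VHL- (edgeR adjusted p = 0.0312) and by 0.67 in VHL+ cells (edgeR adjusted p = 0.0341). These KDELR1 calls held in 8 and 5 of the 12 fits without 1 library, and the VHL- value was -0.25 without VHL- DMSO replicate 1 (edgeR adjusted p = 0.277). SEC22B, ARFGAP3 and SAR1B rose by 0.58, 0.56 and 0.42 in VHL+ cells, SEC22B with the caution that near-identical copies can share its reads. The SAR1B call was lost without VHL+ JQ1 replicate 1 or 3 or VHL+ DMSO replicate 1 or 3 (0.36 to 0.45, edgeR adjusted p between 0.0632 and 0.128). In VHL- cells the 11 falls numbered 7 without VHL- JQ1 replicate 2 or VHL- DMSO replicate 1 and 6 without VHL- JQ1 replicate 3. Falls among all tested genes numbered 2850, 2953 and 2594 in these fits, beside 3632 with all libraries.

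Of the 26 genes of the other sensors and of the PERK branch 3 rose and 8 fell in VHL- cells (42.3%, beside 32.2% of all tested genes). In VHL+ cells 4 rose and 4 fell (30.8%, beside 31.7% of all tested genes). ATF6B, the relative of ATF6, fell by 1.06 in VHL- cells (36.4 ± 7.82 CPM under JQ1 and 76.3 ± 17.1 CPM under DMSO, edgeR adjusted p = 0.000207). TRIB3, a pseudokinase induced in the PERK branch, fell in both lines, by 0.70 in VHL- (189 ± 31.0 CPM under JQ1 and 307 ± 25.4 CPM under DMSO) and by 1.07 in VHL+ cells (40.2 ± 1.48 CPM under JQ1 and 84.2 ± 3.04 CPM under DMSO), with edgeR adjusted p of 0.000611 and 1.79e-05. WFS1, an ER membrane protein, rose by 0.99 in VHL- and 0.66 in VHL+ cells, and the kinase gene MAPK8 by 0.48 and 0.79. The WFS1 call in VHL+ cells was lost without VHL+ JQ1 replicate 2 or 3 or VHL+ DMSO replicate 1 (0.49 to 0.63, edgeR adjusted p between 0.0539 and 0.0773). MBTPS2, the Golgi protease that cleaves ATF6, fell by 0.65 in VHL- cells. NFYA, a subunit of the factor that binds CCAAT, was just past the threshold there (0.50, edgeR adjusted p = 0.0474), and passed in 4 of the 12 fits without 1 library and 9 of 24 alternatives in all (0.32 to 0.61). PPP1R15A, a phosphatase subunit that ends the translation block, rose by 0.87 in VHL+ cells. TRAF2, an adaptor of IRE1, fell by 0.48 in VHL- (edgeR adjusted p = 0.0191) and by 0.72 in VHL+ cells (edgeR adjusted p = 0.00146), and its VHL- call was lost without VHL- JQ1 replicate 2 (-0.42, edgeR adjusted p = 0.0735) or 3 (-0.50, edgeR adjusted p = 0.0624). CREB3L1, named after its values were seen and too low for the rule on named genes, had the largest fall of the listed genes, 3.04 in VHL- (0.556 ± 0.248 CPM under JQ1 and 4.50 ± 2.88 CPM under DMSO) and 3.32 in VHL+ cells (0.621 ± 0.287 CPM under JQ1 and 6.05 ± 0.909 CPM under DMSO), with edgeR adjusted p of 0.000117 and 5.05e-05.

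**Figure D4:**
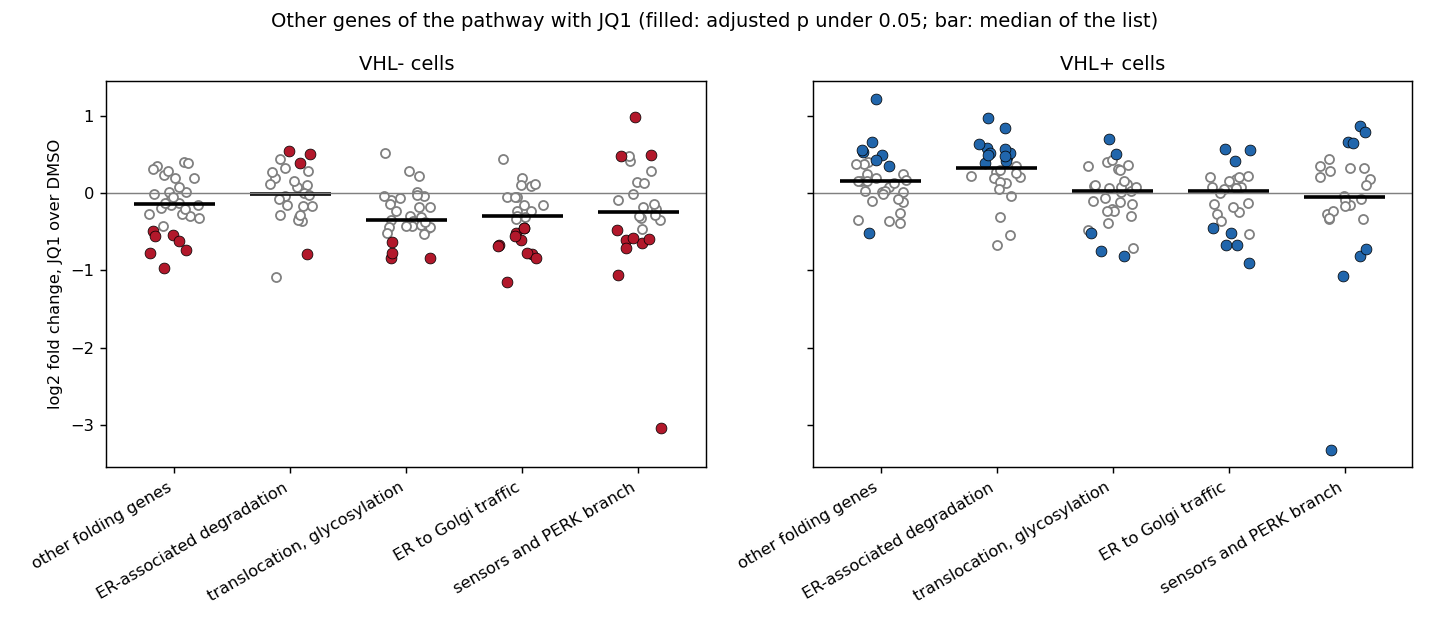
Change under JQ1 of every tested gene of the 5 pathway lists in VHL- and VHL+ cells, as log2 fold change of JQ1 over DMSO; filled points passed at an adjusted p under 0.05. Few points lie beyond 1 in either direction, the lowest being CREB3L1 at -3.04 and -3.32.

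Between the lines, 19 of the 141 genes were higher and 15 lower in VHL- than in VHL+ cells under DMSO (24.1%, where 30.7% of all tested genes passed). Under JQ1, 15 were higher and 52 lower (47.5%, where 41% passed), with a median of -0.25 beside 0.03 over all tested genes. Without VHL- JQ1 replicate 1 there were 14 higher and 76 lower, where 9601 genes of the whole table passed, beside 8495 with it. With scaling by total counts, which moved the median of all genes by 0.16, there were 23 higher and 38 lower. The JQ1 effect itself differed between the lines for 1 of the 141 genes (0.709%, where 1.4% passed), QSOX1. Without VHL- JQ1 replicate 1, 2 genes passed upward and 52 downward, where 3624 genes of the whole table passed, beside 291 with it. None of the 141 passed without VHL- JQ1 replicate 2 or 3, or without any 1 of the VHL+ JQ1 libraries.

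For XBP1 and HSPA5 the genes with the nearest levels over the 4 group means were sought among 8075 others of at least 4 mean log2 CPM, after centring each gene on its own mean. XBP1, centred, stood at -0.82, 0.40, -0.30 and 0.72 in VHL- JQ1, VHL- DMSO, VHL+ JQ1 and VHL+ DMSO libraries. Nearest to it by root mean square difference were PTPRE (0.0465), BRIX1 (0.0496), TSHZ1 (0.0627), COA7 (0.0645) and L3MBTL2 (0.0667). HSPA5, centred, stood at 0.15, 0.14, -0.30 and 0.02, and nearest to it were SRRM1 (0.011), NOM1 (0.0185), BRWD3 (0.0211), GLI3 (0.0251) and HCG18 (0.0256). None of these genes is on the pathway lists, which says little, since the lists hold 142 genes and the candidates numbered 8075. Among the 10 genes, XBP1 and ERN1 lay farthest apart, at 0.996.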

How the data were processed

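RNA of 12 RCC4 libraries was measured as counts per Ensembl gene in the authors' deposited table. Tools in the submitters' processing notes are DESeq2 1.30.1, featureCounts, STAR 2.7.8 and Subread 2.0.3, with the build GRCh38 and no roles. In the authors' 2 deposited result tables the JQ1 fold change and its error are on the log2 scale, the test statistic is a score and each gene has a p-value. The mean in these deposited tables is of an other kind, counts over size factors.

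Tests used edgeR 4.0.16 (TMM, filter by group, robust quasi-likelihood fit of 4 group means over all 12 libraries), limma 3.58.1 and DESeq2 1.42.0 in R 4.3.3. The 20714 tested genes held 99.9% of counts. Positions and exon lengths came from GENCODE 29, promoters from RefSeq. The members and lists were chosen with earlier results of these data known. Named pathway genes were the 3 largest called rises and falls per list and line with at least 3 mean log2 CPM; a gene that this rule names is not reported here. Alternatives changed scaling, filter, tool, spread estimate, genes, replicate block and libraries. The fit was also run on simulated counts. These were drawn independently for each gene, so shifts shared by genes within a library were not simulated.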

Additional observations from a re-analysis of the deposited data

Results flagged for a closer look

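The JQ1 effect on QSOX1, a sulfhydryl oxidase of the folding list, differed between the lines by a test of the difference itself. The difference was -0.91 on the log2 scale (SE 0.197, edgeR adjusted p = 0.0304). QSOX1 averaged 262 ± 42.1 CPM under JQ1 and 211 ± 2.88 CPM under DMSO in VHL- cells, against 268 ± 12.0 CPM under JQ1 and 115 ± 15.2 CPM under DMSO in VHL+ cells (SD, n = 3 each). The rise passed in VHL+ (1.23) and did not in VHL- cells (0.31, edgeR adjusted p = 0.0965). The difference passed under 13 of 23 alternatives and in 5 of the 12 fits without 1 library, with adjusted p between 0.00083 and 0.243. It did not pass without VHL- JQ1 replicate 2 or 3, VHL- DMSO replicate 1 or 3, or any 1 of the VHL+ JQ1 libraries, and its values lay between -1.06 and -0.79 over all alternatives.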

How the results depend on the processing

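The number of the 10 genes that passed moved with single libraries and, in some comparisons, further with other settings. In VHL- cells under JQ1 it was 3 and lay between 2 and 6 with 1 library left out. In VHL+ cells it was 3, lay between 3 and 4 with 1 library left out, and was 5 with total counts, 5 with protein-coding genes only and 2 without both replicate 3 JQ1 libraries. Between the lines under DMSO it was 2, lay between 1 and 2, and was 1 with total counts and 1 without both replicate 1 DMSO libraries. Under JQ1 it was 6, lay between 2 and 7, and was 1 without both replicate 3 JQ1 libraries. For the difference between JQ1 effects it was 0, lay between 0 and 3, and was 1 without a filter on low counts. The number of all tested genes that passed moved too with 1 library left out. It lay between 4687 and 8107 for JQ1 in VHL- cells and between 6427 and 9601 for the lines under JQ1. For the difference between JQ1 effects it lay between 66 and 3624. Over the 10 genes and 5 comparisons, 1077 of the alternative values kept direction and side of the threshold, 44 lost it, 23 gained it and 46 changed sign, none of these 46 called. The spread without robust estimation and the restriction to protein-coding genes were added after seeing the data.

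Values that changed sign were small. With total counts HSPA5 in VHL- cells was -0.0072, DNAJB9 -0.0134 and the difference for HSP90B1 0.0795. Without a filter HSPA5 was -0.0465 and DNAJB9 -0.0234 in VHL- cells, and HERPUD1 between the lines under JQ1 -0.0064. HSPA5 was -3e-04 in VHL- cells fitted alone. With protein-coding genes HSP90B1 was 0.0372 in VHL- cells and its difference 0.1191, and 0.0567 with a minimum of 1 CPM. Without both replicate 3 JQ1 libraries DNAJB9 was -0.0045 in VHL- and 0.0181 in VHL+ cells and its difference -0.0225. Without both replicate 1 DMSO libraries DNAJB9 was -0.128 and 0.1886 and its difference -0.3166, and HSPA5 between the lines under DMSO -0.0365. With 1 library left out the ranges were, in VHL- cells, -0.1136 to 0.114 for HSPA5, -0.162 to 0.042 for HSP90B1, -0.1183 to 0.176 for DNAJB9 and -0.1677 to 0.0212 for SDF2L1. In VHL+ cells they were -0.144 to 0.0698 for HSP90B1 and -0.1681 to 0.1894 for DNAJB9. Between the lines they were -0.0249 to 0.3424 for HSPA5 and -0.0797 to 0.2645 for SDF2L1 under DMSO, and -0.1034 to 0.0967 for HERPUD1 under JQ1. For the difference they were -0.4489 to 0.0118 for XBP1, -0.1391 to 0.0952 for HSP90B1, -0.1671 to 0.2169 for DNAJB9 and -0.021 to 0.1775 for HERPUD1. The cause was not tested.

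Of all tested genes, 291 passed for the difference, against 1228 without a filter, 1188 with DESeq2 and 24 without both replicate 3 JQ1 libraries, which also left 4008, 4178 and 4852 genes for JQ1 in VHL-, JQ1 in VHL+ and the lines under JQ1. With total counts 34.3% of calls under JQ1 in VHL+ cells were rises, against 48.4% with TMM, and 62% against 48.3% between the lines under JQ1. Replicate numbers did not clearly pair the libraries. A correlation of deviations over 0.1 was seen in 4 of 18 same-number pairs, and 6 of 12 libraries correlated best with their own number. These 4 pairs (0.165 to 0.335) all held VHL- JQ1 replicate 1 or 2. Whether part of the libraries were paired cannot be told from these values. With the replicate block the counts of the 10 genes were 3, 3, 2, 6 and 0, and of all genes 6655, 6436, 6205, 8403 and 296.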
